A study of Homo sapiens with 7 samples.

Results

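A set of 10 genes that control the passage of cells from G1 into S phase was characterized in T-47D cells, a luminal human breast cancer line. They were the D-type cyclins CCND1, CCND2 and CCND3, the kinases CDK4 and CDK6, the inhibitors CDKN1A, CDKN1B and CDKN2A, the pocket protein gene RB1 and the transcription factor gene E2F1. The genes were chosen by name and make up 10 of the 26175 genes with a steady-state transcript level. The members of the Start-seq data were the gene TSSs called inside each gene's listed locus widened by 1000 nts on both sides, 11 of 10391, together with the antisense TSSs that share their identifiers.

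The study profiled 7 samples of the line under 1 growth condition, with 2 Start-seq, 3 RNA-seq, 1 MNase-seq and 1 FAIRE-seq samples. There was no treated or genetically altered comparison group. The labels name the cells T-47D, whereas the methods of the study name T47D/A1-2, a derivative that carries a rat glucocorticoid receptor transgene and an integrated MMTV luciferase reporter. All cells were grown in 10% serum and were then held for 24 hours or longer in medium with 5% serum stripped of steroids by charcoal. Start-seq sequences short capped RNA from nuclei, and transcription start sites (TSSs) are placed from the first base of its reads. A gene TSS starts the gene itself. An upstream antisense TSS (uaTSS) starts a transcript on the opposite strand before the gene TSS, and a downstream antisense TSS (daTSS) starts such a transcript after it. The RNA-seq level is FPKM, fragments scaled to transcript length and to the number of mapped fragments, and is given as 1 value per gene over the 3 replicates, which the authors had merged. No level therefore has a replicate error, the depth is unknown, and neighboring levels in the order below cannot be separated by a test. TSS calls came from Start-seq replicate 1 alone and carry no read counts.

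In G1, D-type cyclins bind CDK4 or CDK6, and the active kinases phosphorylate the retinoblastoma protein encoded by RB1. Unphosphorylated RB1 holds E2F transcription factors inactive, and its phosphorylation frees E2F to activate genes needed for S phase. E2F also acts on the E2F1 gene itself. The INK4 inhibitors bind CDK4 and CDK6 directly, while the CIP and KIP inhibitors p21 (CDKN1A) and p27 (CDKN1B) bind cyclin-CDK complexes. In luminal breast cancer cells the cyclin D1 gene is a well known target of estrogen signaling, and CDK4 and CDK6 are drug targets.

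The promoters of CCND1, CDKN2A, RB1 and E2F1 were those that matched an E2F word, which is any of the 8-letter runs TTTCCCGC, TTTCGCGC, TTTGCCGC and TTTGGCGC on either strand. They are shown here because the encoded pathway ends in E2F, and each is read 5’ to 3’ on the strand of the gene in hg19. Each runs from 15 nts before the first match to 9 nts past the first transcribed base, with the matches in capitals. The E2F1 stretch instead ends 15 nts past its last match. The stretches are chr11:69455762-69455933 on the plus strand for CCND1, chr9:21994577-21994692 on the minus strand for CDKN2A, chr13:48877847-48878024 on the plus strand for RB1 and chr20:32274189-32274239 on the minus strand for E2F1.
CCND1: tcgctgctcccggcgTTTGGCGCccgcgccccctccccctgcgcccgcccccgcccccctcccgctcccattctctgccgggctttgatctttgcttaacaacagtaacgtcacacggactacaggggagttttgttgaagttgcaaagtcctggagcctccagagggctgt
CDKN2A: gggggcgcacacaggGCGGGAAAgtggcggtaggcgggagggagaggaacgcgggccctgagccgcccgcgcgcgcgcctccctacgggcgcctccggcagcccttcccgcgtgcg
RB1: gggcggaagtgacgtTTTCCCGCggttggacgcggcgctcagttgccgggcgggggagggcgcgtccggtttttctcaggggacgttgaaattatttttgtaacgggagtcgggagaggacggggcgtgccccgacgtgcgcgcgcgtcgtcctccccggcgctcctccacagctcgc
E2F1: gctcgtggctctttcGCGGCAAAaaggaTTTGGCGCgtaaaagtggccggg

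The other 5 gene TSSs called for these genes are shown with 40 nts before and 20 nts from the first transcribed base on, since their start sequences differ. The capitals mark the bases at positions -1 and +1, where +1 is the first transcribed base. The stretches are chr6:41909474-41909533 and chr6:42016403-42016462 for CCND3 and chr12:58146060-58146119 for CDK4, all on the minus strand, and chr6:36646415-36646474 for CDKN1A and chr12:12870262-12870321 for CDKN1B on the plus strand.
CCND3 downstream: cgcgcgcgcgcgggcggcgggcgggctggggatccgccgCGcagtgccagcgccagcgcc
CCND3 upstream: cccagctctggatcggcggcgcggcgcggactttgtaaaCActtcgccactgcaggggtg
CDK4: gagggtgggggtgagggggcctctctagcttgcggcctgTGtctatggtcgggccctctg
CDKN1A: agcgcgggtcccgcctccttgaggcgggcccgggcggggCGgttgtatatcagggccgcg
CDKN1B: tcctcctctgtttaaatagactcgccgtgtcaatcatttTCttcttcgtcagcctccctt

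Transcripts of 8 of the 10 genes were present at an FPKM of 14.7 or higher, whereas CDK6 stood at 0.240 and CCND2 was listed at 0. An FPKM of at least 1 was reached by these 8 genes, against 46.9% of all genes in the table. The median of the 10 genes was 22.3, while that of all genes was 0.528 and that of genes with a gene TSS inside the widened locus was 10.1. From high to low the order of FPKM was CDK4, CCND3, E2F1, RB1, CCND1, CDKN1B, CDKN2A, CDKN1A, CDK6 and CCND2.

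Among the D-type cyclins, which activate CDK4 and CDK6, the level of CCND3 (ENSG00000112576) was the highest at an FPKM of 71.2, above 94.5% of all genes. CCND1 (ENSG00000110092), the cyclin D1 gene, was at 24.5, above 83.6% of genes. The FPKM of CCND3 was thus 2.91 times that of CCND1, and CCND3 supplied 74.4% of the summed D-type cyclin FPKM. CCND2 (ENSG00000118971), which encodes cyclin D2, was listed at 0, as were 30.1% of the genes in the table. In bulk RNA, fewer cells that express a gene and less RNA per cell cannot be told apart.

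CDK4 (ENSG00000135446), which encodes the kinase partner of the D-type cyclins, had the highest FPKM of the 10 genes at 153.6, above 98.2% of all genes. CDK6 (ENSG00000105810), its close paralog, was at 0.240, below the median of all genes, so that the FPKM of CDK4 was 639 times that of CDK6. The size of this ratio rests on the low level of CDK6, and the log2 ratio was 8.82 with a pseudocount of 0.1 and 6.96 with a pseudocount of 1. The locus listed for CDK4 also spans TSPAN31, a tetraspanin gene on the opposite strand, whose own FPKM was 62.8. The RNA-seq libraries kept strand, but whether FPKM was computed by strand is not given in the sources used here, so both levels are uncertain where these genes overlap.

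**Figure D1:**
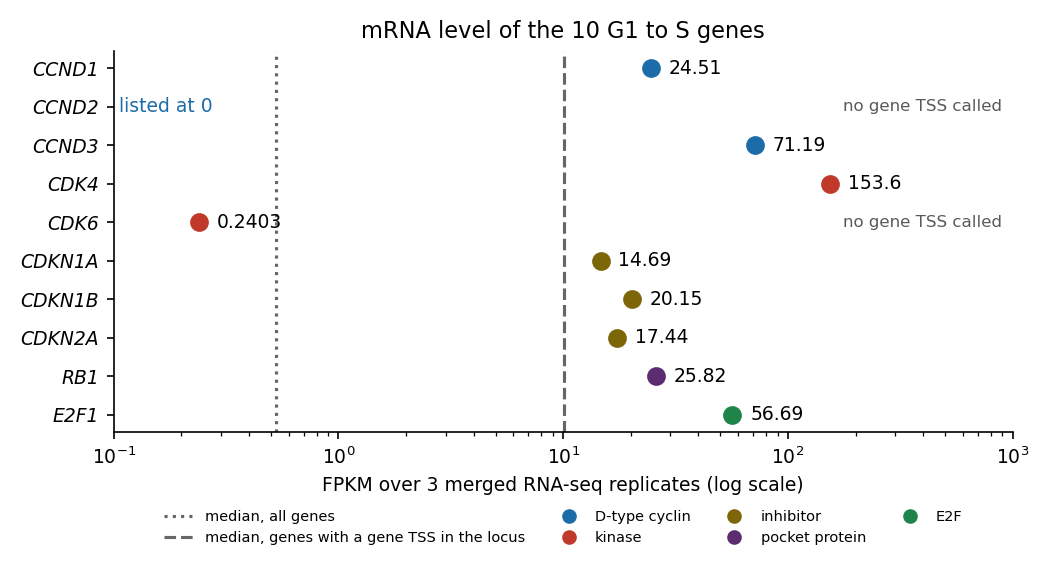
FPKM of each of the 10 genes over the 3 merged RNA-seq replicates on a log axis, colored by role, with a dotted line at the median of all genes (0.528) and a dashed line at the median of genes with a gene TSS in the widened locus (10.1). Each point is 1 merged value without an error; 8 genes lie right of the dashed line, CDK6 lies left of the dotted line and CCND2 was listed at 0.

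The 3 inhibitor genes lay close together, between FPKM 14.7 and 20.2. CDKN1B (ENSG00000111276), encoding p27, was at 20.2, and CDKN2A (ENSG00000147889), which encodes both the INK4 inhibitor p16 and the p53 regulator ARF from separate first exons, was at 17.4. CDKN1A (ENSG00000124762), encoding p21, was at 14.7 and above 76.8% of all genes. The summed FPKM of these 3 inhibitors was 52.3, against 95.7 for the D-type cyclins. The inhibitor sum leaves out 4 other inhibitor genes of the pathway, which ranged from 0.460 to 22.5. The cyclin sum covers the whole D-type family, so the sums differ in scope. The inhibitor sum also counts the whole CDKN2A level, which was not divided between p16 and ARF.

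RB1 (ENSG00000139687), which encodes the pocket protein that restrains E2F, stood at 25.8, above 84.3% of genes. E2F1 (ENSG00000101412), an activator of S phase genes, stood at 56.7, above 92.7% of genes and at 2.20 times the FPKM of RB1.

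Gene TSSs were called in the widened loci of 8 of the 10 genes, against 49.9% of all genes in the table. By the nearest annotated start on the same strand, 9 of the 11 calls belonged to the genes themselves. Thus 8 of the 10 genes owned a gene TSS, against 41.3% of the 22337 listed genes that are named in the annotation. The authors searched for gene TSSs at mRNA entries only, whereas the listed genes include noncoding ones such as CDKN2B-AS1. Both shares therefore cover genes that were not searched for. The other 2 of the 11 calls belonged to neighbors. A call on the plus strand at chr12:58138854, 7225 nts from the CDK4 call, was the start of TSPAN31, and a call on the minus strand at chr20:32262680, 611 nts outside the E2F1 locus, was nearest to NECAB3. No gene TSS was called for CCND2 or CDK6, the genes with the lowest FPKM. The nearest call on either strand to their annotated starts was 264704 nts away for CCND2 and 246179 nts away for CDK6.

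The starts of CCND1 (chr11:69455924), CDKN1B (chr12:12870302) and the downstream call of CCND3 (chr6:41909493) matched an annotated transcript start to the nucleotide. Of the 9 gene TSSs, 6 lay within 10 nts of an annotated start, including CDK4 (chr12:58146079) and E2F1 (chr20:32274201). The authors searched for gene TSSs around annotated mRNA starts and, between candidate positions, kept the one closest to the annotated start. Closeness to annotation was thus partly built into the calls, and its share over all gene TSSs was not computed. CDKN1A (chr6:36646455) was called 32 nts upstream of its nearest annotated start. RB1 (chr13:48878015) was called 104 nts downstream of the nearest annotated start and 128 nts from the start of the transcript that the annotation marks as canonical.

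CCND3 and CDKN2A each have alternative promoters far apart, and the calls differed between them. CCND3 had a pair of calls, 106929 nts apart. Of its 23 annotated transcripts, 4 start within 1000 nts of the downstream call and 15 within 1000 nts of the upstream call (chr6:42016422), while the remaining 4 start farther from either call. CDKN2A had a single call (chr9:21994586), on the side of the first exon of ARF, and 5 of its 14 annotated transcripts start within 1000 nts of it. At the start of the canonical transcript, which encodes p16 and lies 19730 nts downstream, no gene TSS was called within 1000 nts. Nor was any called at a farther group of annotated starts, 23187 to 24120 nts downstream. The CDKN2A call was 176 nts upstream of its nearest annotated start and 96 nts outside the listed locus, and it is the farthest of the 9 from an annotated start.

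**Figure D2:**
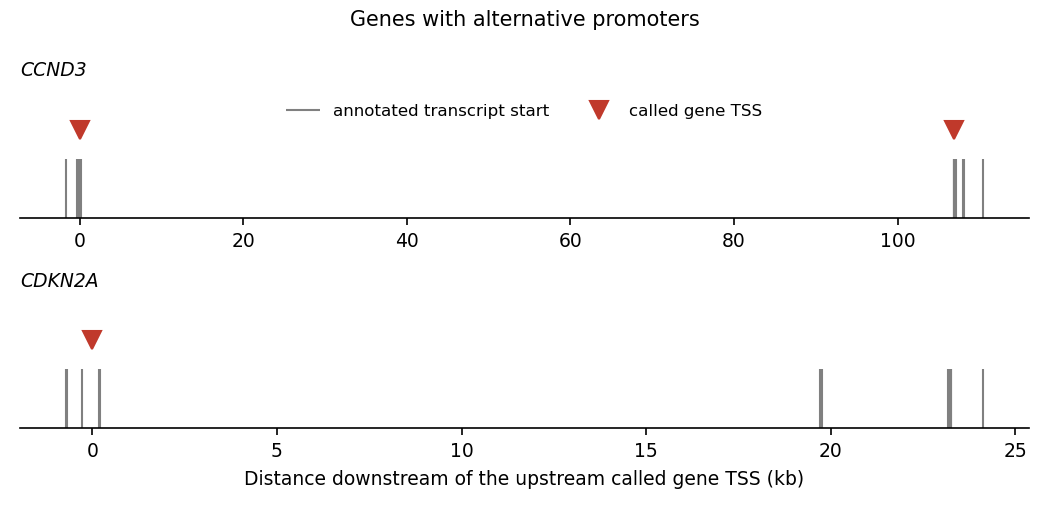
Annotated transcript starts (gray bars) and called gene TSSs (red triangles) of CCND3 and CDKN2A, with distance in kb downstream of each gene's upstream call. CCND3 has a pair of calls 106929 nts apart. CDKN2A has a call at the upstream group and none at the groups farther downstream, which include the p16 start at 19730 nts.

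Antisense initiation was found at 5 of the 9 gene TSSs, and the shares of all gene TSSs with either kind or with both were not computed here. A uaTSS was called at 4 of 9, those of CDK4, CDKN1B, RB1 and the downstream promoter of CCND3, against 53.1% of all gene TSSs. A daTSS was called at 2 of 9, those of CCND1 and CDK4, against 28.4%. CDK4, the gene with the highest FPKM, was the one with both. Neither kind was called at CDKN1A, CDKN2A, E2F1 and the upstream promoter of CCND3. With a single library and no read counts, a missing call is not evidence that antisense initiation was absent.

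The uaTSSs lay 159 nts (RB1), 266 nts (CDKN1B), 303 nts (CCND3) and 406 nts (CDK4) upstream of the gene TSS, while the median over all uaTSSs was 200 nts. The RB1 uaTSS, at chr13:48877856, coincided to the nucleotide with an annotated start of RB1-DT, a divergent long noncoding RNA gene. For the other 5 antisense TSSs of these genes, the nearest annotated start on the same strand was between 2401 and 16974 nts away. The CDK4 uaTSS (chr12:58146485) was the one 2401 nts away, from a start of MARCHF9. The authors had removed daTSSs within 1000 nts of an annotated start on the same strand, so the daTSS distances were partly fixed in advance.

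Both daTSSs fell in coding sequence of the gene they oppose. In CCND1 the daTSS (chr11:69456224) lay 300 nts downstream of the gene TSS, in the coding part of exon 1, which is 356 nts long. In CDK4 it lay 748 nts downstream (chr12:58145331), in coding exon 2. Of all daTSSs, 23.8% were closer to their gene TSS than that of CCND1 and 71.0% closer than that of CDK4, and the median was 507 nts. The sequences around both daTSSs are given on the antisense strand, chr11:69456205-69456264 on the minus strand for CCND1 and chr12:58145291-58145350 on the plus strand for CDK4, with positions -1 and +1 in capitals, because both begin with the same pair.
CCND1 daTSS: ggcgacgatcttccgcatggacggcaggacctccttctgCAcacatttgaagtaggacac
CDK4 daTSS: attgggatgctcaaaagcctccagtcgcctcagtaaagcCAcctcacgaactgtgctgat

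**Figure D3:**
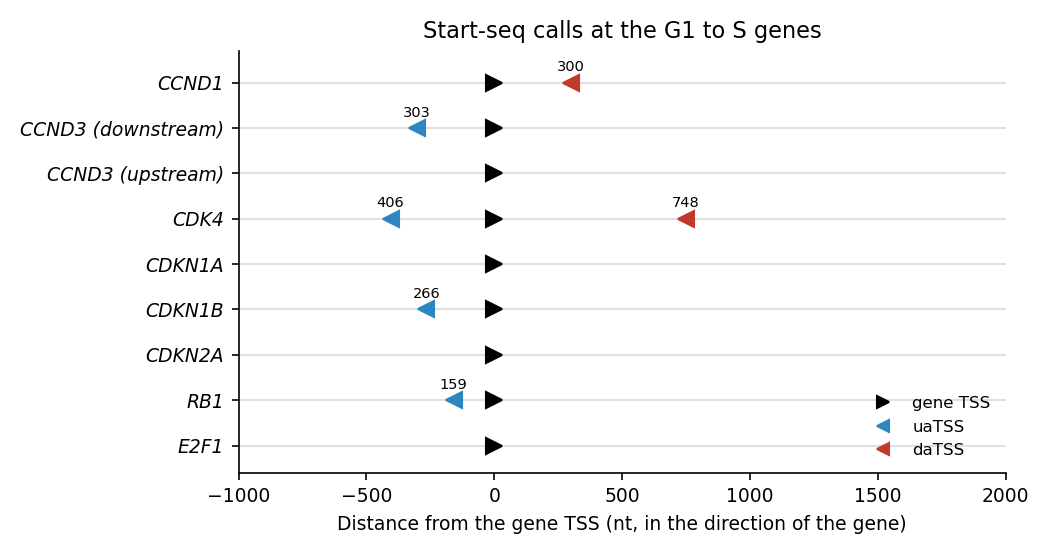
Positions of the uaTSS (blue) and daTSS (red) calls relative to each of the 9 gene TSSs (black), in nts along the direction of the gene; arrowheads give the direction of transcription. The uaTSSs lie 159 to 406 nts upstream, the daTSSs 300 and 748 nts downstream, and 4 gene TSSs have neither.

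RNA polymerase II tends to start on a purine that follows a pyrimidine. This pair at -1 and +1 was found at 6 of the 9 gene TSSs, close to the 66.1% of all gene TSSs. It was also found at 5 of the 6 antisense TSSs, but its share over all antisense TSSs was not computed. The 3 gene TSSs without it were those of CDKN1B, CDKN2A and RB1, each of which began with C. TATAA or TATAT, starting between -35 and -24, was found at none of the 9, against 3.003% of all gene TSSs. These positions count from the called start. The CDKN1A stretch above holds TATAT just after its called start, which lies 36 nts upstream of the canonical annotated start.

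Promoter windows were the 300 nts that begin 250 nts upstream of each gene TSS. Their GC content ranged from 62.3% for CDKN1B to 77.7% for the downstream promoter of CCND3, with a median of 72.3%, while the median of all gene TSSs was 66.0%. At the starts without calls, GC content lay on both sides of the median of all gene TSSs. The same window at the annotated start of CDK6 held 78.0% GC, that of CCND2 65.0% and that of the p16 transcript of CDKN2A 69.0%. The CpG ratio, the observed over the expected number of CpG in 1000 nts, was 0.765 for CDK6, 0.555 for CCND2 and 0.779 for the p16 start, against 0.631 to 0.945 at the 9 called gene TSSs.

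An E2F word was present in 4 of the 9 promoter windows, against 5.51% of the windows of all gene TSSs. E2F1 held a pair of words immediately before its start, at -23 to -16 on the opposite strand and at -10 to -3 on the strand of the gene. The words of the other promoters lay at -147 to -140 in CCND1, -91 to -84 in CDKN2A, where the word overlapped a GC box, and -153 to -146 in RB1. In RB1 the word sat 6 to 13 nts upstream of the uaTSS in the direction of antisense transcription, and so lay between both starts. Extended to 1000 nts, the windows gave the same count of 4 against 13.2% of all gene TSSs. With the first letter left off each word, the count was again 4, against 21.5%. A match is a description of the letters and does not show that a factor binds.

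The GC box GGGCGG, a word for the SP family of activators, was found on either strand in all 9 windows, against 72.5% of all gene TSSs. Within 50 nts upstream of the start it was found in 3 of 9, those of CDKN1A, CDKN2A and the downstream promoter of CCND3, against 27.4%. At the annotated starts without calls, the 300-nt window held 3 GC boxes for CDK6, 2 for the p16 transcript and 0 for CCND2. CCAAT, the word bound by NF-Y, was in 3 of 9 windows against 35.3%, with 3 matches each in CDKN1B and E2F1. ACGTCA, part of the cyclic AMP response element, was in 2 of 9 against 11.2%, at -55 to -50 in CCND1 and, on the opposite strand, at -159 to -154 in RB1, directly before the E2F word.

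**Figure D4:**
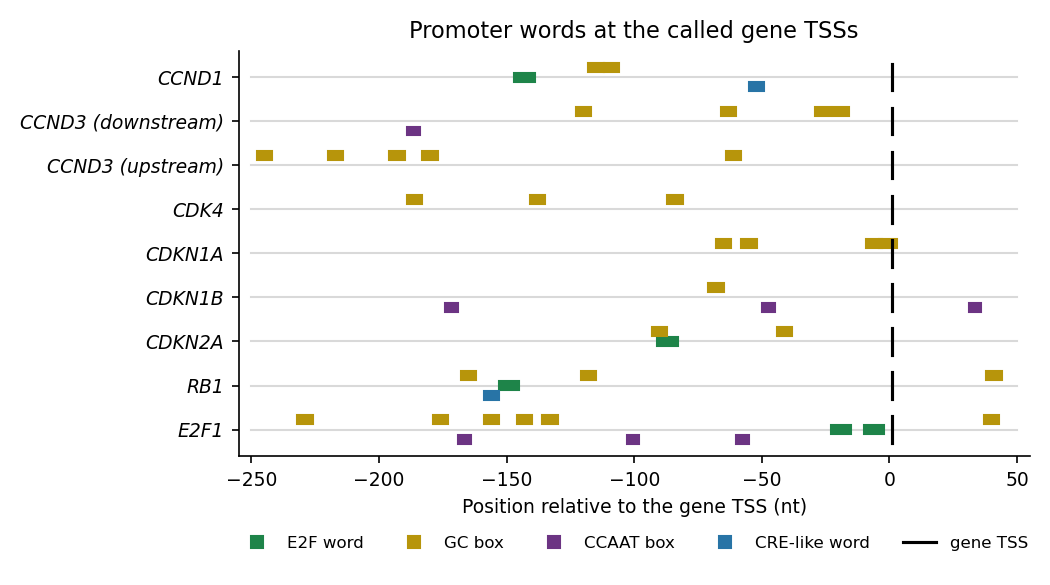
Matches to the E2F word, the GC box, CCAAT and the ACGTCA word on either strand in the 300-nt window of each of the 9 gene TSSs, in nts relative to the gene TSS (black bar). GC boxes occur in all 9 windows and E2F words in 4, nearest to the start in E2F1.

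The wider pathway was described with 28 other genes of the G1 to S transition. An FPKM of at least 1 was reached by 26 of the 28, against 46.9% of all genes, with a median of 16.5. A gene TSS was owned by 24 of the 28, against 41.3% of the listed genes that are named in the annotation. Of their 27 gene TSSs, 17 had a uaTSS, against 53.1% of all gene TSSs. A daTSS was called at 14 of the 27, against 28.4% of all gene TSSs and 2 of 9 for the 10 genes. Among the cyclins, kinases and CDK-activating kinase subunits, CDK2, the kinase partner of cyclins E and A, was highest at 84.4, while the cyclin gene CCNA1 was listed at 0. The inhibitors ranged from 0.460 for CDKN1C, encoding p57, to 22.5 for CDKN2C, encoding p18.

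RB1 at 25.8 was close to its relative RBL2 at 25.5, and RBL1 was at 11.5. Among the E2F and DP genes, TFDP1, encoding the dimerization partner of E2F proteins, was highest at 80.6 although no gene TSS was called for it, and the repressor gene E2F6 was lowest at 5.71. Of the ubiquitin ligase and phosphatase genes, SKP2, whose product targets p27 for degradation, was at 25.7, and the phosphatase gene CDC25A was at 11.0.

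**Figure D5:**
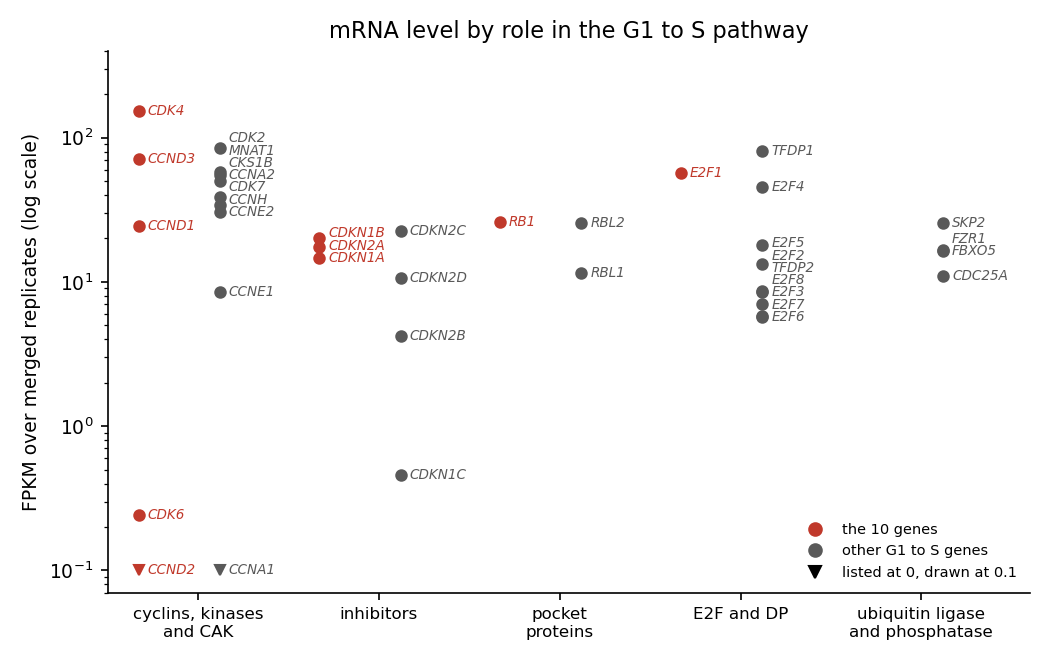
FPKM of the 10 genes (red) and of 28 other G1 to S genes (gray) by role on a log axis; each point is 1 merged value, and genes listed at 0 are drawn as triangles at 0.1. Most genes lie between FPKM 5 and 100, with CDK6, CDKN1C, CCND2 and CCNA1 below 1.

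All 8 luminal epithelial markers had an FPKM of at least 1, from 44.1 to 1142, and so had all 5 markers of cycling cells, from 27.8 to 259. Of the basal markers KRT5 and KRT14 were listed at 0 and TP63 was at 0.517. Of the 3 mesenchymal markers COL1A1 reached 8.82, and VIM and COL3A1 stayed under 1. Of the blood markers PTPRC was at 0.0208 and CD3E was listed at 0. Their part in the levels of the G1 to S genes was not tested.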

How the data were processed

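Start-seq, RNA-seq, MNase-seq and FAIRE-seq were performed on T-47D cells, of which MNase-seq, FAIRE-seq and Start-seq replicate 2 were not used here. The authors trimmed adapters (cutadapt 1.2.1), aligned Start-seq reads to hg19 (Bowtie 0.12.8) and deposited each TSS as a single position with a score of 0. The deposited expression values are FPKM, which the authors computed with Cufflinks 2.2.1 after alignment with TopHat2 2.0.4, removal of duplicates with Picard and merging of 3 replicates. The table had 0 columns of unmatched per-sample values, and no test was possible.

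Calls were joined by their shared identifier and assigned to the gene with the nearest annotated start within 1000 nts on the same strand. Sequence came from GRCh37, the sequence of hg19, and transcripts from GENCODE lifted to GRCh37. The FPKM table gives loci of overlapping genes as 1 interval. Promoter words were searched on both strands, and log2 ratios used a pseudocount of 0.1. The word search and the join of calls to loci by position were tested on simulated data. The search was tested in sequences of A and T only, so false matches in GC-rich sequence were not tested. The join by identifier and the assignment to the nearest start were not tested in this way. Python 3.11.15, numpy 2.4.6, pandas 2.3.3 and matplotlib 3.10.9 were used.

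The 10 genes, the pathway and marker lists and the words were chosen with earlier results of these data known, and the searches other than the E2F word and the GC box were added later. All 10 genes are named. Of the other 28, the highest and lowest FPKM in each role and any listed at 0 are named. Alternatives changed the widening of loci, the assignment and joining of calls, the genes ranked against, the pseudocount, the words and the window. Of the blood marker list, 1 gene is not reported here.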

Additional observations from a re-analysis of the deposited data

How the results depend on the processing

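Of 47 alternative values, 12 kept the value as reported within their limits and 35 moved, mostly because the reference genes changed. The median rank of the 10 genes, 82.4% of all genes lower, was 74.7% among genes with FPKM above 0, 62.4% among genes with FPKM of at least 1 and 67.8% among genes with a called gene TSS. The median FPKM was 25.2 for the 8 genes with a called gene TSS. The log2 ratio of CCND1 to CCND3 was -1.53 with a pseudocount of 0.1 and -1.50 with 1, and that of CDK4 to CDK6 was 8.82 and 6.96. A GC box was in the window of 8 genes and, in the 50 nts upstream, of 3. Median GC content was 65.2% over 1000 nts. Without widening, 7 of the 10 genes had a call, since that of CDKN2A lies outside its locus. The planned ratio of CCND1 to CCND2 was not run because CCND2 was listed at 0. No paired analysis was possible because the RNA-seq replicates were merged and calls came from 1 library. Depth is unknown, so a gene without a call or listed at 0 may have been below detection.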

Other observations

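E2F words outside the 10 genes were counted as a description, and the genes named here were chosen after their values were seen. Among the 28 other G1 to S genes, 4 of 27 gene TSS windows held an E2F word, those of CDC25A, E2F2, E2F3 and RBL1, which is 14.8% against 5.51% of all gene TSSs. CDC25A encodes the phosphatase that activates CDK2, and RBL1 encodes the pocket protein p107. Among the 5 markers of cycling cells, 2 of 6 windows held 1, those of CDK1, the mitotic kinase, and PCNA, the sliding clamp of DNA replication.

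The neighbors inside the widened loci were transcribed too. TSPAN31, which overlaps the listed locus of CDK4, had an FPKM of 62.8, and its gene TSS had a uaTSS 247 nts upstream. NECAB3, beside E2F1, had an FPKM of 53.7. CDKN2B, which encodes the INK4 inhibitor p15 and adjoins CDKN2A, was at 4.20, so that the FPKM of CDKN2A was 4.15 times as high, with p16 and ARF counted together.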
